A study of Mus musculus with 24 samples.

Results

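Expression of 8 genes for Fc receptors, their signalling adaptors and inhibitory receptors of myeloid cells was measured in mouse cortex: Fcgr1, Fcgr2b, Fcgr3, Fcgr4, Fcer1g, Tyrobp, Lilrb4a and Pirb. The genes were chosen by name, and all 8 were found among the 22180 genes with a probe set of their own on the array. Each had 1 probe set annotated to it alone: 17408024 for Fcgr1, 17229607 for Fcgr2b, 17229620 for Fcgr3, 17219199 for Fcgr4, 17229658 for Fcer1g, 17476364 for Tyrobp, 17233226 for Lilrb4a and 17485589 for Pirb. The study modelled neuronopathic Gaucher disease, a lysosomal storage disorder of the brain, with conduritol B-epoxide (CBE), an inhibitor of the enzyme that is deficient in the disease. All animals were male mice, 18 days old when the cortex was taken, and belonged to 4 strains that the labels call SV129, FVB, C57 and C3H. The C57 mice were C57BL/6JOlaHsd. In each strain, 3 mice had intraperitoneal CBE at 25 mg per kg per day from day 8 to day 18, and 3 mice had phosphate-buffered saline (PBS) and served as healthy controls. The model is chemical, and the labels name no altered allele in any group.

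Fc gamma receptors bind the constant part of IgG on the surface of phagocytes. Fcgr1, the high-affinity receptor, and Fcgr3 and Fcgr4, both of lower affinity, signal through the adaptor Fcer1g, the common gamma chain, whose tail holds an immunoreceptor tyrosine-based activation motif (ITAM). Tyrobp, also called DAP12, is a second ITAM adaptor and serves receptors such as Trem2. Phosphorylated ITAMs recruit the kinase Syk. Fcgr2b is the inhibitory Fc gamma receptor, and Lilrb4a and Pirb are inhibitory receptors of the leukocyte immunoglobulin-like family. These 3 receptors carry inhibitory motifs (ITIMs) that recruit the phosphatases encoded by Ptpn6, Ptpn11 and Inpp5d. In the healthy brain the Fc gamma receptors and both adaptors are carried mainly by microglia and by the macrophages of the brain's borders. In the RefSeq gene order, Fcgr2b, Fcgr4, Fcgr3 and Fcer1g lie on chromosome 1, with 0 protein-coding genes between Fcgr2b and Fcgr4, 0 between Fcgr4 and Fcgr3, and 7 between Fcgr3 and Fcer1g. Fcgr1 is on chromosome 3, Tyrobp and Pirb are on chromosome 7 and Lilrb4a is on chromosome 10.

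The 250 bases before the annotated start are shown for 4 of these genes because they cover the high-affinity receptor, the inhibitory receptor, a receptor with an interferon-type motif, and the shared adaptor. RefSeq promoter sequences (mouse assembly GRCm38.p6) were at hand for 6 of the 8 genes, Tyrobp and Lilrb4a not among them. The motifs searched, on both strands, were the gamma-activated site TTCNNNGAA, bound by Stat proteins, the core of the interferon-stimulated response element GAAANNGAA, and the core of the site of the myeloid factor PU.1, GAGGAA. Capitals mark the matches, and each sequence runs 5′ to 3′ towards the gene's start.
Fcgr1 (chr3:96293970-96294219, minus strand): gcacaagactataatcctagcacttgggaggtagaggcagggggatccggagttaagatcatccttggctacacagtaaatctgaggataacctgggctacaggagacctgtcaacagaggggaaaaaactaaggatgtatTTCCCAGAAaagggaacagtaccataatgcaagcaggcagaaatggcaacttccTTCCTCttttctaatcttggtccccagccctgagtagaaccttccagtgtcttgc
Fcgr2b (chr1:170976072-170976321, minus strand): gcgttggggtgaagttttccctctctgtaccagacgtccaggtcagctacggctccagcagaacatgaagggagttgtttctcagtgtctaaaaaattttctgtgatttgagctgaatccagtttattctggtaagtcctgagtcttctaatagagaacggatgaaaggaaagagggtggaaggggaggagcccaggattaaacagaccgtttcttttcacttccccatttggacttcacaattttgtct
Fcgr4 (chr1:171018676-171018925, plus strand): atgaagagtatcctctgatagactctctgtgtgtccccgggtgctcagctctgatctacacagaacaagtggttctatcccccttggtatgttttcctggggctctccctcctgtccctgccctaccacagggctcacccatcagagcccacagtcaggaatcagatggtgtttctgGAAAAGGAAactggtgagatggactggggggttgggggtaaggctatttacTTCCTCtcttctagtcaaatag
Fcer1g (chr1:171234350-171234599, minus strand): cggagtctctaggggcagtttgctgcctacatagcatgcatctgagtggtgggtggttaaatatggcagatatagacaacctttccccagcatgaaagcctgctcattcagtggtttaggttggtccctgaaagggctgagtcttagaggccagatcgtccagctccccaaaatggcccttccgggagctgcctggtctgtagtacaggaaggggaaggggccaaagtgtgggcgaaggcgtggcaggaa
Fcgr1 held 1 gamma-activated site, TTCCCAGAA, 109 to 101 bases before the start, and 1 PU.1 core. Fcgr4 held 1 response element core, GAAAAGGAA, 73 to 65 bases before the start, and 1 PU.1 core. Fcgr2b and Fcer1g held no match, which says only that these letters are not in these windows. Of the 6 windows, 1 held the gamma-activated site, 1 the response element core and 4 the PU.1 core (those of Fcgr1, Fcgr3, Fcgr4 and Pirb). Among all 32851 windows of this length, 7.02% held the gamma-activated site, 7.13% the response element core and 23.3% the PU.1 core. The matches printed here do not overlap one another. They describe sequence only: binding was not measured.

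An array stood apart before any test. C3H CBE replicate 1 gave the highest value of the 24 arrays for 5 of the 8 genes, namely Fcgr2b, Fcer1g, Tyrobp, Lilrb4a and Pirb. Its Lilrb4a value was 9.43 log2 units, against 5.90 and 5.55 on the other C3H CBE arrays, and its Tyrobp value was 7.30 against 5.59 and 5.67. The mean of 13 microglia markers was 7.02 on this array and 6.56 to 6.63 on its replicates. The results below are therefore given with all 24 arrays and without this one. It stands apart through values of the tested genes themselves, so p-values without it depend on that choice. Quality weights over all genes did not place it lowest: its weight was 0.79, where weights ran from 0.60 to 1.48. Array medians lay between 4.14 and 4.22, so the arrays shared a scale, and the number of arrays limits the precision. RNA came from whole slices of cortex, so more cells of a type and more RNA per cell cannot be told apart. The labels number 3 arrays per group and say nothing of litters, so p-values measure the spread between these samples.

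**Figure D1:**
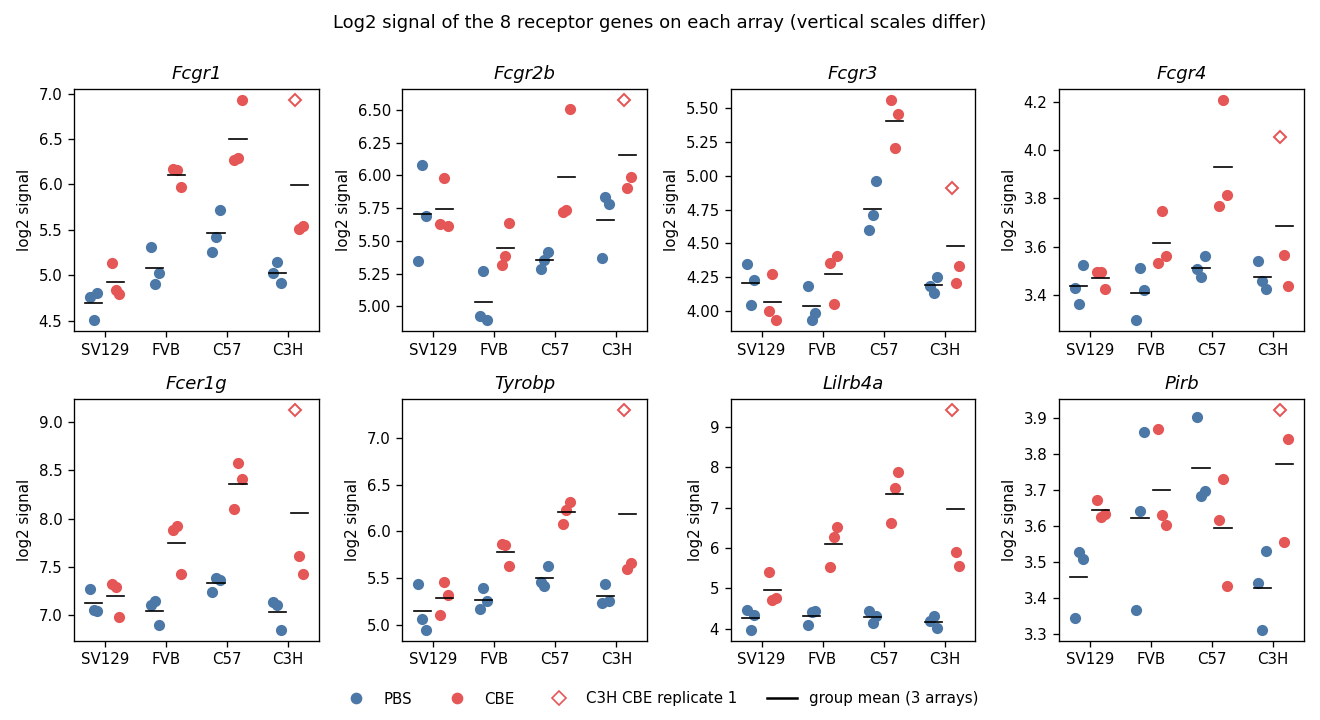
Log2 signal of each of the 8 genes (vertical axes, scales differ) on every array, by strain (horizontal axes), with PBS in blue, CBE in red and the mean of each group of 3 arrays as a bar. The open diamond is C3H CBE replicate 1, which lies far above its replicates for Lilrb4a, Tyrobp, Fcer1g and Fcgr1, while in SV129 the PBS and CBE points of most genes overlap.

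Averaged over the 4 strains, Lilrb4a, Fcgr1 and Fcer1g rose in CBE mice, and no gene of the 8 fell. With limma and Benjamini-Hochberg adjustment over all 22180 genes at 0.05, 3 of the 8 genes passed as higher, where 0.609% of all genes passed as higher and 0.117% as lower. Tyrobp passed too without C3H CBE replicate 1, giving 4 of 8, where 0.699% of all genes passed as higher and 0.126% as lower. All 8 genes had a mean difference above 0. The median difference was 0.48 log2 units (0.38 without that array), and the median over all genes was -0.01 in both cases. Leaving out C3H CBE replicate 3 raised the count to 5, through Tyrobp and Fcgr4.

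Lilrb4a, an inhibitory receptor with ITIMs, had the largest difference of the 8. In PBS mice its values were 4.46, 3.98 and 4.35 for SV129, 4.09, 4.41 and 4.43 for FVB, 4.44, 4.15 and 4.31 for C57, and 4.19, 4.31 and 4.02 for C3H. The strains overlapped, and the PBS means, from 4.17 to 4.31, did not pass the F-test (limma adjusted p = 0.998). In CBE mice the values were 5.41, 4.70 and 4.77 for SV129, 5.52, 6.28 and 6.53 for FVB, 6.62, 7.50 and 7.90 for C57, and 9.43, 5.90 and 5.55 for C3H. In each of the 4 strains, every CBE array lay above every PBS array. The mean change was 2.08 ± 0.30 log2 units (SE), a fold of 4.23 with limma adjusted p = 3.5e-04, and higher in 12 of 12 CBE mice than the PBS mean of their strain. Leaving out C3H CBE replicate 1 gave 1.77 ± 0.14 (limma adjusted p = 4.6e-08).

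By strain, the Lilrb4a change was 3.04 ± 0.60 in C57, an 8.23-fold rise (limma adjusted p = 0.022). That call was lost when any 1 of C57 PBS replicates 1, 2 and 3 or C57 CBE replicates 2 and 3 was left out (adjusted p 0.079 to 0.186). It held without C3H CBE replicate 1 (3.04 ± 0.26, limma adjusted p = 4.6e-07). The FVB difference of 1.80 ± 0.60 did not pass with all arrays (limma adjusted p = 0.55) and passed without that array (adjusted p = 8.9e-04). In SV129 the difference was 0.70 ± 0.60, with adjusted p = 0.67 in limma and 0.25 without that array. In C3H the difference of 2.79 ± 0.60 did not pass (limma adjusted p = 0.14). Without C3H CBE replicate 1 it was 1.55 ± 0.29 (adjusted p = 0.087), and without C3H CBE replicate 2 or 3 it was 3.32 to 3.49 and passed (adjusted p 0.0086 to 0.042).

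A further probe set, 17233210, is annotated both to Lilrb4a and to its close relative Lilr4b, and is not part of the values above. Its values ran from 3.32 to 4.22, near the lower end of the scale, and its mean difference was 0.18 ± 0.06 log2 units (limma adjusted p = 0.29). Over the 24 arrays its Pearson r with the Lilrb4a probe set was 0.66. The genes of this family are near copies of each other, so how far each probe set separates them is uncertain.

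Fcgr1, the high-affinity IgG receptor, rose by 0.81 ± 0.13 log2 units on average, a fold of 1.75 (limma adjusted p = 9.6e-04), and lay above the strain's PBS mean in 12 of 12 CBE mice. PBS values were 4.76, 4.51 and 4.81 for SV129, 5.31, 4.91 and 5.02 for FVB, 5.26, 5.42 and 5.72 for C57, and 5.02, 5.15 and 4.92 for C3H. CBE values were 5.14, 4.84 and 4.80 for SV129, 6.17, 6.16 and 5.97 for FVB, 6.27, 6.29 and 6.93 for C57, and 6.93, 5.51 and 5.54 for C3H. Only in SV129 did the groups overlap. Leaving out C3H CBE replicate 1 gave a mean change of 0.69 ± 0.08 (limma adjusted p = 1.4e-05). The differences of 1.02 ± 0.25 in FVB and 1.03 ± 0.25 in C57 did not pass with all arrays (limma adjusted p = 0.19 and 0.12). They passed without that array, at 1.02 ± 0.15 in FVB (adjusted p = 0.0012) and 1.03 ± 0.15 in C57 (limma adjusted p = 5.8e-04). The SV129 difference was 0.23 ± 0.25, and the C3H difference of 0.96 ± 0.25 became 0.49 ± 0.17 without its first array. Neither passed in limma (adjusted p 0.43 to 1.00 over both settings).

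Fcer1g, the adaptor that Fcgr1, Fcgr3 and Fcgr4 use, rose by 0.71 ± 0.13 log2 units on average (1.63-fold, limma adjusted p = 0.0080), and by 0.57 ± 0.07 without C3H CBE replicate 1 (adjusted p = 3.5e-05). PBS values were 7.27, 7.06 and 7.04 for SV129, 7.10, 7.14 and 6.90 for FVB, 7.24, 7.38 and 7.36 for C57, and 7.14, 7.10 and 6.85 for C3H. CBE values were 7.32, 7.29 and 6.98 for SV129, 7.89, 7.93 and 7.42 for FVB, 8.10, 8.58 and 8.41 for C57, and 9.13, 7.61 and 7.42 for C3H. The groups overlapped only in SV129, where CBE replicate 3 lay below all 3 controls. With C3H CBE replicate 1 left out, FVB (0.70 ± 0.14, limma adjusted p = 0.017) and C57 (1.03 ± 0.14, adjusted p = 1.3e-04) passed. With all arrays no single strain passed for Fcer1g (limma adjusted p 0.17 to 0.94). The C3H difference was 1.02 ± 0.27 with all arrays and 0.49 ± 0.15 without C3H CBE replicate 1. Leaving out C3H CBE replicate 3 instead gave 1.34, which passed (limma adjusted p = 0.037). The average call was lost in an ordinary linear model without moderated variances (adjusted p = 0.052).

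Tyrobp, the second ITAM adaptor, had a mean difference of 0.56 ± 0.13 log2 units, just outside the threshold with all arrays (limma adjusted p = 0.055). Without C3H CBE replicate 1 it rose by 0.42 ± 0.06 (adjusted p = 2.8e-04). It also passed without SV129 PBS replicate 1, C3H CBE replicate 2 or C3H CBE replicate 3 (adjusted p up to 0.039). PBS values were 5.44, 5.06 and 4.95 for SV129, 5.17, 5.39 and 5.25 for FVB, 5.45, 5.41 and 5.63 for C57, and 5.23, 5.44 and 5.25 for C3H. CBE values were 5.10, 5.46 and 5.31 for SV129, 5.86, 5.85 and 5.63 for FVB, 6.08, 6.22 and 6.32 for C57, and 7.30, 5.59 and 5.67 for C3H. As for Fcer1g, only SV129 had overlapping groups. In single strains, the C57 change of 0.71 ± 0.12 passed without C3H CBE replicate 1 (limma adjusted p = 0.0019), and the FVB difference of 0.51 ± 0.12 did not (adjusted p = 0.065). The other differences were 0.14 ± 0.27 in SV129 and 0.88 ± 0.27 in C3H, the latter falling to 0.32 ± 0.13 without C3H CBE replicate 1, and neither passed in limma (adjusted p 0.65 to 1.00).

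Fcgr2b, the inhibitory Fc gamma receptor, had a mean difference of 0.40 ± 0.10 log2 units that did not pass (limma adjusted p = 0.10, and 0.15 without C3H CBE replicate 1). Among the single arrays left out, it passed only without SV129 PBS replicate 2 (0.44, adjusted p = 0.049). PBS values were 5.34, 6.08 and 5.69 for SV129, 4.93, 5.27 and 4.90 for FVB, 5.29, 5.35 and 5.41 for C57, and 5.37, 5.84 and 5.78 for C3H. CBE values were 5.63, 5.98 and 5.61 for SV129, 5.32, 5.39 and 5.64 for FVB, 5.72, 5.74 and 6.51 for C57, and 6.57, 5.91 and 5.99 for C3H. In SV129 the PBS mice spanned the whole range of the CBE mice, and in the other strains the groups did not overlap. The differences were 0.04 ± 0.21 for SV129, 0.42 ± 0.21 for FVB, 0.64 ± 0.21 for C57 and 0.49 ± 0.21 for C3H, the last becoming 0.29 ± 0.21 without C3H CBE replicate 1. None passed in limma in either setting (adjusted p 0.28 to 1.00).

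Fcgr3, an activating low-affinity receptor, differed by 0.26 ± 0.08 log2 units on average and did not pass (limma adjusted p = 0.15, and 0.18 without C3H CBE replicate 1). In C57 its PBS values of 4.60, 4.71 and 4.96 stood against CBE values of 5.56, 5.21 and 5.46, with no overlap. That difference of 0.65 ± 0.15 did not pass with all arrays (limma adjusted p = 0.075) and passed without C3H CBE replicate 1 (0.65 ± 0.12, adjusted p = 0.0069) or C3H CBE replicate 2 (adjusted p = 0.047). PBS and CBE values were 4.35, 4.04 and 4.23 against 3.998, 4.27 and 3.94 in SV129, where 2 of 3 CBE mice lay below the PBS mean. They were 4.18, 3.93 and 3.99 against 4.36, 4.06 and 4.41 in FVB, and 4.19, 4.13 and 4.25 against 4.91, 4.21 and 4.33 in C3H. Outside C57 the groups overlapped in every strain. The differences there were -0.14 ± 0.15 for SV129, 0.24 ± 0.15 for FVB and 0.29 ± 0.15 for C3H, the last becoming 0.08 ± 0.13 without C3H CBE replicate 1, and none passed in limma (adjusted p 0.67 to 1.00).

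Fcgr4, an activating receptor, was dim. Its mean exceeded that of only 16.6% of genes, a range where a change can be hidden or shrunk. PBS values lay between 3.30 and 3.56 in every strain. The CBE values were 3.50, 3.50 and 3.42 for SV129, 3.53, 3.75 and 3.56 for FVB, 3.77, 4.21 and 3.82 for C57, and 4.06, 3.56 and 3.44 for C3H. The mean difference of 0.22 ± 0.06 log2 units did not pass (limma adjusted p = 0.14, and 0.15 without C3H CBE replicate 1), but passed without C3H CBE replicate 3 (0.25, adjusted p = 0.039). The groups were apart in FVB and C57 and overlapped in SV129 and C3H. In C57 the difference of 0.42 ± 0.12 passed when C3H CBE replicate 1 was left out (limma adjusted p = 0.33 with it and 0.047 without it). For the other strains the differences were 0.03 ± 0.12 (SV129), 0.20 ± 0.12 (FVB) and 0.21 ± 0.12 (C3H), the last becoming 0.03 ± 0.11 without that array, and none passed in limma (adjusted p 0.74 to 1.00).

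Pirb, an inhibitory receptor for MHC class I also described on neurons, was dim as well, with a mean above that of 20.7% of genes. PBS values were 3.35, 3.53 and 3.51 for SV129, 3.37, 3.64 and 3.86 for FVB, 3.90, 3.68 and 3.70 for C57, and 3.44, 3.31 and 3.53 for C3H. CBE values were 3.67, 3.63 and 3.63 for SV129, 3.87, 3.63 and 3.60 for FVB, 3.62, 3.73 and 3.43 for C57, and 3.92, 3.56 and 3.84 for C3H. All 3 CBE mice lay above all 3 controls in SV129 and C3H, and all 3 lay below the PBS mean in C57. No strain passed, with differences of 0.18 ± 0.12 for SV129, 0.08 ± 0.12 for FVB, -0.17 ± 0.12 for C57 and 0.35 ± 0.12 for C3H (limma adjusted p 0.54 to 0.98). The C3H difference was 0.27 ± 0.13 without C3H CBE replicate 1. The F-test of equal changes did not pass for Pirb either (limma adjusted p = 0.74). The mean over strains was 0.11 ± 0.06 (adjusted p = 0.53), with a 95% interval from -0.01 to 0.23.

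**Figure D2:**
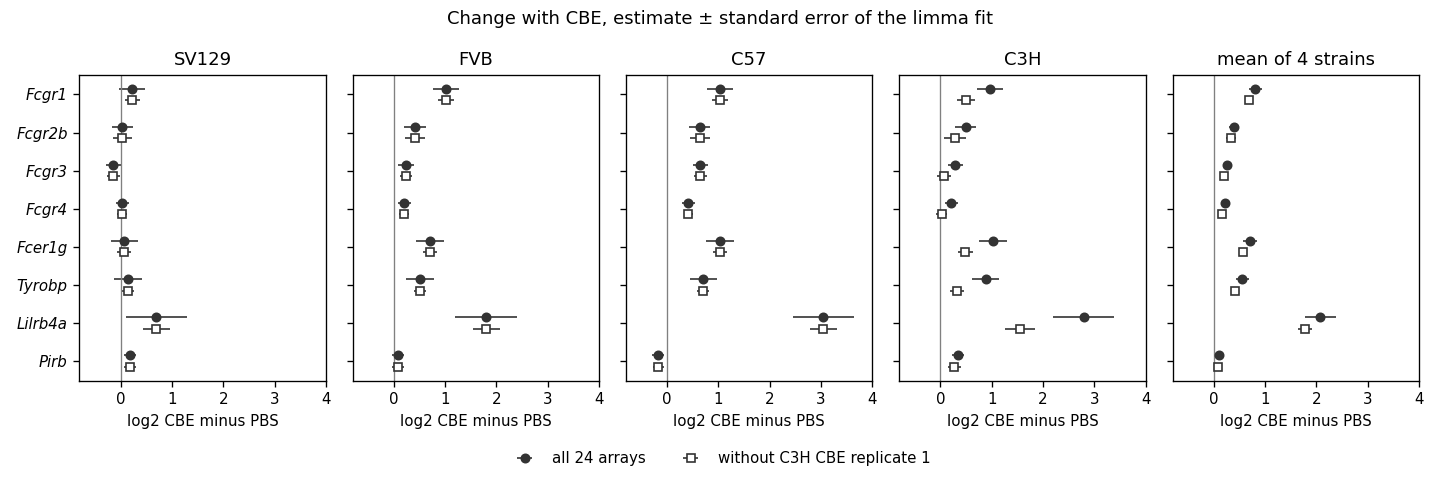
CBE minus PBS in log2 units (horizontal axes) for the 8 genes (rows) in each strain and in the mean of 4 strains. Filled circles use all 24 arrays, open squares leave out C3H CBE replicate 1, and lines are standard errors of the limma fit; the Lilrb4a estimate in C3H moves from 2.79 to 1.55 and the error bars of SV129, FVB and C57 shorten.

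Counted by strain, C57 had the most genes called in both settings, and SV129 and C3H had none in either. With all arrays the C57 lead was the 1 Lilrb4a call, which was lost on leaving out most of the single C57 arrays. In SV129, 0 of 8 genes passed as higher, where 0.0135% of all genes passed (0.0316% without C3H CBE replicate 1). At an unadjusted p under 0.05 the SV129 count was 0, and 1 without that array, where 4.35% and 4.53% of all genes were higher at that p. In FVB the count was 0 with all arrays, where 0.135% of genes passed, and 3 (Fcgr1, Fcer1g and Lilrb4a) without that array, where 0.374% passed. The unadjusted FVB counts were 3 and 6, beside 2.94% and 3.19% of all genes. In C57 it was 1 (Lilrb4a), where 0.316% of genes passed, and 6 without that array, where 0.600% passed; Fcgr2b and Pirb were the exceptions. The unadjusted C57 counts were 7 and 7, beside 2.87% and 3.18% of all genes. In C3H it was 0 in both settings, where 0.0361% and 0.0316% of genes passed, and 6 and 5 at an unadjusted p under 0.05, beside 2.91% and 1.96% of all genes. Without overlap between groups, all 3 CBE mice lay above all 3 controls for 2 of 8 genes for SV129 (Lilrb4a and Pirb), 6 for FVB, 7 for C57 and 6 for C3H. The share of all genes with that pattern was 6.52% for SV129, 5.09% for FVB, 5.82% for C57 and 4.50% for C3H.

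Whether the change differed between strains was tested directly. With all 24 arrays, 0 of 8 genes passed the F-test of 4 equal changes, where 0.00902% of genes passed. The unadjusted p was under 0.05 for Fcgr3, Lilrb4a and Pirb (0.012, 0.044 and 0.036), as it was for 6.57% of all genes. Lilrb4a passed without C3H CBE replicate 1 (limma adjusted p = 0.045), a setting in which 0.113% of genes passed. In pairs of strains, 0 of 48 gene and strain pairs passed with all arrays, where 0.00827% of all such pairs passed, and 2 passed without that array, where 0.0488% passed. Lilrb4a changed by less in SV129 than in C57, with a difference of changes (SV129 minus C57) of -2.34 ± 0.37 log2 units (limma adjusted p = 0.0078). Fcer1g changed by less in SV129 than in C57, with a difference of -0.96 ± 0.19 (adjusted p = 0.040). With all arrays these differences had the same size, standard errors of 0.84 and 0.38, and limma adjusted p = 0.43 and 0.46. The mean over FVB, C57 and C3H alone, taken after the values were seen, called 6 genes: Lilrb4a, Fcgr1, Fcer1g, Tyrobp, Fcgr3 and Fcgr2b. That mean leaves out SV129, the strain with the smallest change for each of these 6 genes. The share of all genes passing was not worked out for it, so the count has no background beside it. Fcgr2b dropped out of that count without C3H CBE replicate 1 (limma adjusted p = 0.048 with it and 0.11 without it).

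In PBS mice the signal of the 1 Fcgr3 probe set differed between strains. Probe sequences were not at hand, so strain variants under the probes were not checked for this or any other gene. The Fcgr3 PBS mean was highest for C57, at 4.76 ± 0.19 (SD, n = 3), and was 4.21 ± 0.16 for SV129, 4.19 ± 0.06 for C3H and 4.03 ± 0.13 for FVB. The F-test called it (limma adjusted p = 0.0089), as did the pairs C57 against FVB (0.72 higher, adjusted p = 0.0038), C57 against C3H (0.57 higher, adjusted p = 0.024) and C57 against SV129 (0.55 higher, adjusted p = 0.026). The other 3 strains did not pass against each other. The F-test call was lost without C57 PBS replicate 3 (adjusted p = 0.077). This was 1 of 8 genes, where 13% of all genes passed, and 3 of 48 pairs, where 5.14% passed. Both counts lie near the share of all genes, so they do not set these 8 genes apart.

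Fcgr1 had PBS means of 4.69 ± 0.16 for SV129, 5.03 ± 0.11 for C3H, 5.08 ± 0.21 for FVB and 5.46 ± 0.23 for C57 (SD, n = 3). It passed the F-test only without C3H CBE replicate 1 (limma adjusted p = 0.19 with it and 0.011 without it), through SV129 against C57 (-0.77, adjusted p = 0.0028). In that setting 13.3% of all genes and 5.31% of pairs passed. For Fcgr2b the PBS means were highest in SV129, at 5.70 ± 0.37, then 5.66 ± 0.26 in C3H, 5.35 ± 0.06 in C57 and 5.03 ± 0.21 in FVB. The widest gap, SV129 against FVB, was 0.67 (limma adjusted p = 0.078). Its F-test did not pass (limma adjusted p = 0.084), but passed without SV129 PBS replicate 1 or C57 CBE replicate 3 (adjusted p 0.036 to 0.038). Beside these levels, the mean of 10 interferon-response genes in PBS mice was 5.04 to 5.26 in C57 and 4.49 to 4.67 in the other strains, and its part in the Fcgr1 and Fcgr3 levels was not tested.

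Activating and inhibitory receptors were then compared on the same arrays. For 5 pairs of genes the within-array difference was tested with an exact two-sided permutation test of PBS and CBE labels within strains (160000 permutations), adjusted over the 5 pairs. Fcgr1 changed by 0.42 log2 units more than Fcgr2b (exact p = 0.0044, adjusted p = 0.011), by 0.20 for SV129, 0.60 for FVB, 0.40 for C57 and 0.47 for C3H. Without C3H CBE replicate 1 the excess was 0.35 (adjusted p = 0.021). Of these receptors, the window printed for Fcgr1 holds a gamma-activated site and that for Fcgr2b holds no match. Of the other printed windows, that of Fcgr4 holds a response element core and that of Fcer1g holds no match. The mean differences were 0.22 for Fcgr4, 0.71 for Fcer1g and 0.40 for Fcgr2b. Fcgr4 is dim, which can shrink its difference. A link between the motifs and the unequal change was not tested. Against Fcgr2b, the values for Fcgr3 and Fcgr4 were -0.14 and -0.18, which did not pass (exact permutation test, adjusted p = 0.24 and 0.18). Lilrb4a changed by 1.97 more than Pirb (exact p = 2.5e-05, adjusted p = 1.25e-04), and by 1.68 without C3H CBE replicate 1 (exact permutation test, adjusted p = 1.25e-04); Pirb is dim, which can shrink its part. Fcer1g exceeded Tyrobp by 0.15, which did not pass (exact permutation test, adjusted p = 0.092), but passed without SV129 CBE replicate 3 or C3H PBS replicate 1 (0.17 to 0.18, adjusted p 0.027 to 0.049). These tests show unequal change between probe sets and nothing about the ratio of the proteins.

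The genes were also set against markers of the cells that carry them. Of 13 measured microglia markers (Fcrls and Siglech among them, which are also in lists of receptors), all 13 had means above the median value of all probe sets, 4.18. Csf1r, the receptor that keeps microglia alive, was the 1 marker called as higher (0.29 ± 0.06, limma adjusted p = 0.033). That call held without any 1 of C3H CBE replicates 1 to 3 and was lost on leaving out any of 12 arrays (adjusted p up to 0.079): SV129 PBS replicate 2, SV129 CBE replicates 1 and 2, FVB PBS replicates 1 and 3, FVB CBE replicates 1 and 2, C57 PBS replicates 1 and 2, C57 CBE replicates 2 and 3, and C3H PBS replicate 1. The mean of the 13 markers differed by -0.01 for SV129, 0.18 for FVB, 0.19 for C57 and 0.26 for C3H (0.11 without its first array). Group ranges of that mean were 6.14 to 6.49 (PBS) and 6.21 to 6.39 (CBE) for SV129, 6.35 to 6.50 and 6.58 to 6.66 for FVB, 6.50 to 6.68 and 6.71 to 6.84 for C57, and 6.44 to 6.56 and 6.56 to 7.02 for C3H.

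Measured as the difference from this marker mean on the same array, a comparison added after the values were seen, 4 genes changed by more than the markers. Lilrb4a exceeded them by 1.93 log2 units (exact permutation test within strains, adjusted over 8 genes, p = 0.0001, from the smallest unadjusted p that these permutations can give). Fcgr1 exceeded them by 0.66 (exact permutation test, adjusted p = 0.0001), Fcer1g by 0.55 (adjusted p = 0.0002) and Tyrobp by 0.41 (adjusted p = 0.0002), each in 4 of 4 strains. All 4 passed without C3H CBE replicate 1, at 1.65, 0.58, 0.45 and 0.30. Fcgr2b at 0.24 did not pass (exact permutation test, adjusted p = 0.056), nor did Fcgr3 at 0.11, Fcgr4 at 0.06 or Pirb at -0.04 (adjusted p 0.20 to 0.62). RNA of the markers can itself change per cell, so this comparison does not separate more microglia from more RNA per cell.

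**Figure D3:**
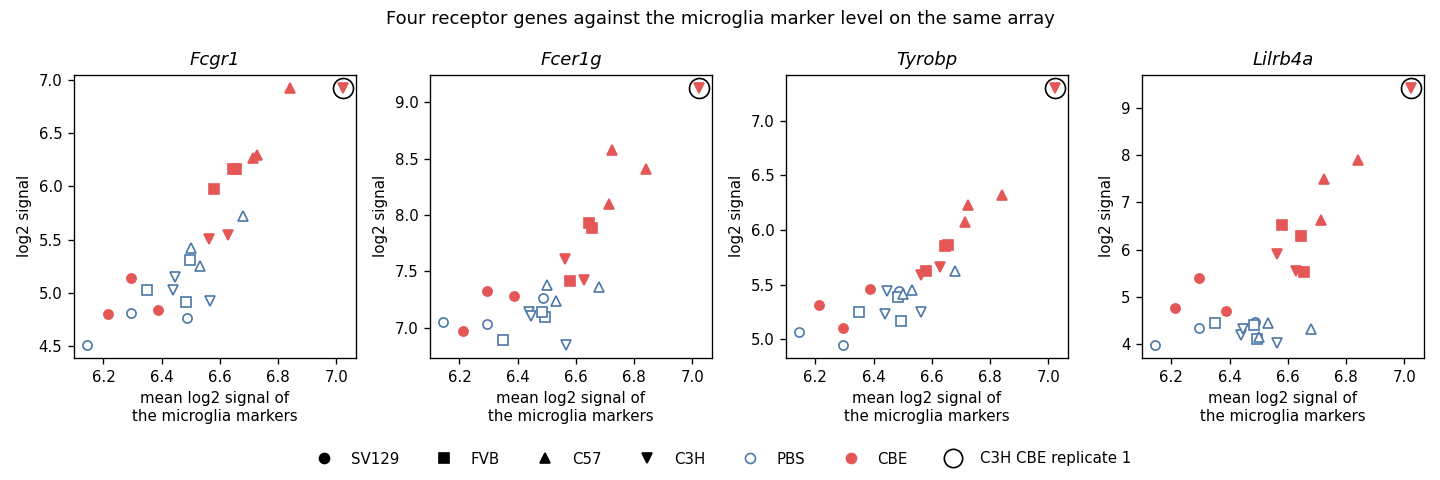
Log2 signal of Fcgr1, Fcer1g, Tyrobp and Lilrb4a (vertical axes) against the mean log2 signal of 13 microglia markers on the same array (horizontal axes), 1 point for each of 24 arrays, with symbols for strains, open for PBS and filled for CBE. The ringed array is C3H CBE replicate 1, at a marker mean of 7.02. For Lilrb4a the other CBE arrays of FVB, C57 and C3H lie above every PBS array. The C57 CBE arrays, at marker means of 6.71 to 6.84, lie beyond the highest PBS marker mean of 6.68.

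None of the markers of other cells that can carry these receptors were called with all 24 arrays. None of 9 markers of border and perivascular macrophages passed (median difference 0.01), and their mean ran from 4.16 to 4.48 over all arrays, with 4.46 on C3H CBE replicate 1. None of 12 markers of monocytes and neutrophils, 7 of B cells, 8 of T cells, 7 of NK cells or 8 of mast cells and basophils passed, and their list means stayed between 3.56 and 3.75, 3.99 and 4.21, 4.29 and 4.46, 3.59 and 3.86, and 4.03 and 4.25. Of these lists, 3 of 9, 1 of 12, 1 of 7, 1 of 8, 0 of 7 and 1 of 8 markers had means above the median of all values. The scale has no true 0. Of 5 dendritic cell markers, 3 had means above that median, among them Cd209a at 8.46, and the list mean ran from 4.69 to 5.22. In this list, Itgax differed by 0.44 ± 0.11 (limma adjusted p = 0.054) and passed without C3H CBE replicate 1 (0.34 ± 0.06, adjusted p = 0.0065). Itgax also passed without FVB CBE replicate 2, C57 CBE replicate 1, or C3H CBE replicate 2 or 3 (adjusted p up to 0.047). None of the 6 endothelial markers passed, and all 6 lay above the median of all values, with list means from 6.97 to 7.56. For the cortex label, 10 of 10 markers of cortical neurons lay above the median of all values, with list means from 8.10 to 8.42 and none called. Gfap, of reactive astrocytes, rose by 1.15 ± 0.13 (limma adjusted p = 2.8e-05), 1 of 5 astrocyte markers. Of the 10 interferon-response genes, 8 rose, among them Ifit1 by 2.58 ± 0.15 (limma adjusted p = 1.7e-09), and their mean on C3H CBE replicate 1 was 6.43 against 5.47 to 5.58 on its replicates. The part of the astrocyte and interferon changes in the receptor changes was not tested.

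Genes of the signalling route around these receptors were counted in 5 lists holding 97 measured genes. With all arrays 6 of 97 passed as higher, where 0.609% of all genes did, and 0 as lower. Without C3H CBE replicate 1 the counts were 9, where 0.699% of all genes passed as higher, and 0. The median difference was 0.05 log2 units, and 0.04 without that array. Leaving out single arrays moved the count between 3 and 11. None of 13 other Fc receptors passed, the nearest being Trim21, the cytosolic IgG receptor, at 0.28 ± 0.09 (limma adjusted p = 0.22).

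Among 19 genes listed as receptors that signal through Fcer1g or Tyrobp, none passed with all arrays. Trem2, a lipid receptor paired with Tyrobp, differed by 0.63 ± 0.15 (limma adjusted p = 0.056), and rose by 0.48 ± 0.08 without C3H CBE replicate 1 (adjusted p = 0.0015). It passed without C57 CBE replicate 1 or C3H CBE replicate 2 or 3 too (adjusted p up to 0.040). Clec7a and Clec5a, named after their values were seen, also passed without C3H CBE replicate 1. Clec7a, the beta-glucan receptor Dectin-1, rose by 0.51 ± 0.08 (limma adjusted p = 9.5e-04). Its differences over all arrays were 0.23 for SV129, 0.21 for FVB, 1.26 for C57 and 1.23 for C3H. Clec7a carries an ITAM-like motif in its own tail, so it belongs to this list only loosely. The cause of its RNA change was not tested. Clec5a rose by 0.25 ± 0.06 (adjusted p = 0.046).

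None of 20 genes listed as other inhibitory receptors passed. Siglec1, a sialic acid receptor of macrophages that lacks an ITIM, came nearest at 0.19 ± 0.05 (limma adjusted p = 0.072). Siglec1 passed without C3H CBE replicate 2 or 3 (adjusted p 0.025 to 0.043). Of 29 kinases and linkers after the ITAM, 4 passed as higher, against the same 0.609% of all genes. They were Lcp2, the linker SLP-76 (0.41 ± 0.09, limma adjusted p = 0.018), Rac2, a GTPase of phagocytes (0.39 ± 0.08, adjusted p = 0.0095), Pik3ap1, an adaptor for phosphoinositide 3-kinase (0.44 ± 0.10, adjusted p = 0.046), and Vav1, an exchange factor for Rac GTPases (0.39 ± 0.09, adjusted p = 0.049), the last named because it completes the count. Of 16 phosphatases and adaptors after the ITIM, 2 passed as higher: Ptpn6, the phosphatase SHP-1 (0.41 ± 0.09, limma adjusted p = 0.036), and Inpp5d, the lipid phosphatase SHIP-1 (0.34 ± 0.07, adjusted p = 0.020). Without C3H CBE replicate 1 all 6 passed (limma adjusted p 0.0019 to 0.026). Single arrays decided some of these calls. Pik3ap1 kept its call only without FVB PBS replicate 1, FVB CBE replicate 3, C57 PBS replicate 3, C57 CBE replicate 1 or any C3H CBE array, and lost it without any of the other 17 (adjusted p 0.062 to 0.105). Ptpn6 kept its call without SV129 PBS replicate 1 or 3, FVB PBS replicate 3, FVB CBE replicate 3, C57 PBS replicate 1, C57 CBE replicate 1, C3H PBS replicate 1 or any C3H CBE array, and lost it without any of the other 14 (adjusted p 0.051 to 0.082). Vav1 kept its call only without SV129 PBS replicate 1, C57 PBS replicate 3, C3H PBS replicate 3 or any C3H CBE array, and lost it without any of the other 18 (adjusted p 0.058 to 0.108). Lcp2, Rac2 and Inpp5d kept theirs without each of the 24 arrays.

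**Figure D4:**
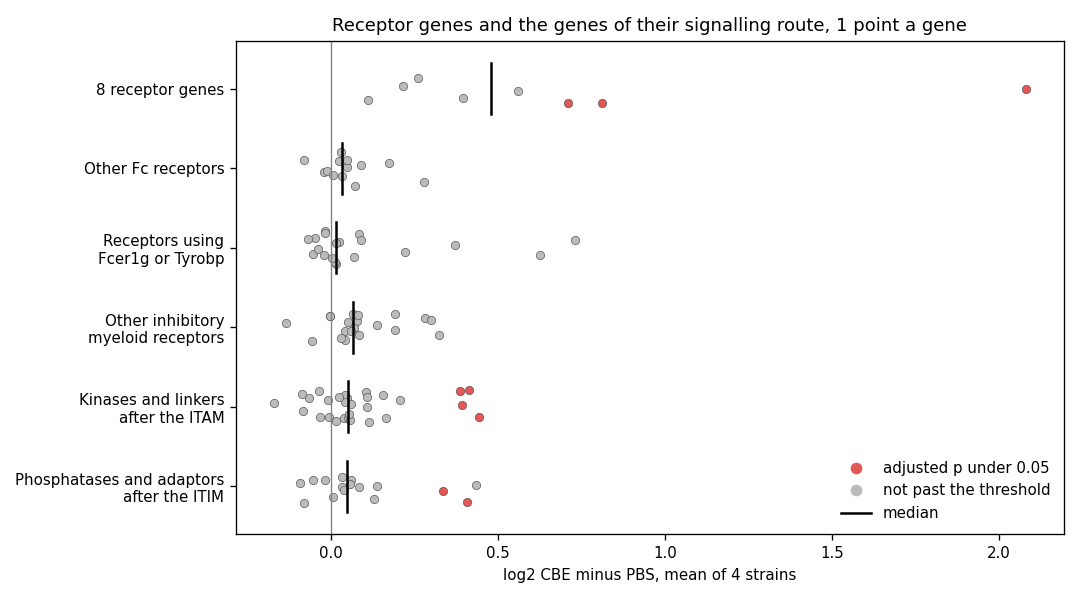
CBE minus PBS averaged over 4 strains, in log2 units (horizontal axis), 1 point per gene, for the 8 receptor genes and for 5 lists of genes of their signalling route (rows), with red points past an adjusted p of 0.05 and a bar at each median. Lilrb4a is the point at 2.08, and the medians of the 5 lists lie between 0.01 and 0.07.

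For each of the 8 genes the other genes with the most similar profile over the 24 arrays were named by Pearson r of log2 values, with r over 23 arrays, C3H CBE replicate 1 left out, in second place. The arrays share strains and treatments, so these values describe the profiles and carry no test. Fcgr1 ran closest to Ctss, cathepsin S (0.96 and 0.94), Mpeg1 (0.96 and 0.94) and Cd180 (0.94 and 0.94). Fcer1g ran closest to Ctsz (0.95 and 0.93), Ctsc (0.95 and 0.91) and Tyrobp (0.94 and 0.92), and Tyrobp to Fcer1g, Cd180 (0.94 and 0.92) and Cd84 (0.93 and 0.91). Lilrb4a ran closest to the chemokine gene Ccl3 (0.97 and 0.95), Ctsc (0.96 and 0.93) and Cybb, a subunit of the phagocyte oxidase (0.95 and 0.95). Ranked over the 23 arrays, Fcgr1 kept the same genes, and the closest gene of the others changed. It was then Rnf213 for Fcer1g (0.95), Cd52 for Tyrobp (0.94) and Ifih1 for Lilrb4a (0.96). Next came Parp14 for Fcer1g (0.94), the interferon-response gene Irf7 for Tyrobp (0.93) and Cxcl10 for Lilrb4a (0.96).

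Fcgr3 ran closest to the interferon-induced gene Bst2 (0.92 and 0.92), Snhg6 (0.89 and 0.89) and Anxa3 (0.89 and 0.88). For Fcgr2b the values were lower, with Ifit2 (0.84 and 0.83), Stat2 (0.75 and 0.72) and Vav1 (0.75 and 0.65). Fcgr4 ran closest to Slc11a1 (0.91 and 0.89), Fcer1g (0.90 and 0.87) and Tmem106a (0.89 and 0.86). Pirb had the lowest values of the 8 genes, with H2-Ob (0.72 and 0.71), Tigit (0.63 and 0.70) and Nudt1 (0.63 and 0.59). Ranked over the 23 arrays, Bst2 and Ifit2 stayed closest to Fcgr3 and Fcgr2b. Gpr84 (0.89) then came closest to Fcgr4, and Smyd4 (0.74) to Pirb.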

How the data were processed

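The deposited values are log2 signals of 41034 probe sets on 24 arrays, made by the authors with Partek and RMA (robust multi-array average) per the submitters' processing notes, with no versions given. The base of the logarithm was inferred from the range (highest value 14.1). RNA (100 ng per sample) was labelled with an Affymetrix kit per the labels' protocols. Only probe sets with 1 symbol in the platform annotation, which can be old, were used. Where a gene had several, the one of highest mean was taken, leaving 22180 genes. Dim probe sets stayed in, because a filter would drop Fcgr4 and Pirb.

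A single limma fit (version 3.58.1, R 4.3.3) held 8 group means, variances moderated across genes (prior of 5.10 degrees of freedom beside 16 residual ones) and Benjamini-Hochberg adjustment over all genes within a contrast. A comparison of 3 arrays with 3 cannot give an exact permutation p below 0.1, so single-strain tests lean on the shared spread. The genes and lists were chosen with earlier results of these data known. From each list up to 3 genes past the threshold by size of change were named, and otherwise the 1 gene with the smallest p; exceptions are stated. Of the listed genes, 16 entries were not analysed here. The fits were tested on simulated data. Alternatives were other scalings, variance models, a dim filter, array weights, own-strain fits, a replicate block and leaving out each array. Same-numbered arrays of PBS and CBE mice did not deviate together (3 of 12 correlations over 0.1), so the numbers were not used as pairs.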

Additional observations from a re-analysis of the deposited data

Results flagged for a closer look

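The response of Lilrb4a to CBE differed between strains once C3H CBE replicate 1 was left out (limma F-test of 4 equal changes, adjusted p = 0.0454). In that setting the change was 0.70 log2 units in SV129, 1.55 in C3H, 1.80 in FVB and 3.04 in C57. Among pairs of strains, only SV129 against C57 passed, at -2.34 (limma adjusted p = 0.0078). C57 also changed by more than C3H (1.49 ± 0.40) and FVB (1.24 ± 0.37), which did not pass (limma adjusted p = 0.48 and 0.80). With all 24 arrays the F-test gave an adjusted p of 0.75.

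The response of Fcer1g differed between SV129 and C57 in the same setting, by -0.96 log2 units (limma adjusted p = 0.040, and 0.46 with all 24 arrays). Both genes changed least in SV129 and most in C57.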

How the results depend on the processing

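The count of 3 receptor genes called in the mean of 4 strains ran from 3 to 5 when single arrays were left out. In the ordinary linear model the count was 2, without Fcer1g (adjusted p = 0.052). It became 6 when SV129, the strain with the smallest changes of those 6 genes, was left out of the mean. No share of all genes was worked out for that mean. In FVB the count of 0 became 2 in a fit on the strain's own arrays and ran from 0 to 3 without single arrays. In C57 the count of 1 became 0 in the ordinary linear model, 0 with trend and robust settings, 4 with array weights and 3 on the strain's own arrays, and ran from 0 to 6 without single arrays. For C3H that range was 0 to 2, for the strain F-test 0 to 1, and for the strain pairs 0 to 2. The PBS count of 1 ran from 0 to 2, and the PBS pairs (3) gave 1 in the ordinary linear model and 1 to 4 without single arrays. The pathway count of 6 became 1 in the ordinary linear model and ran from 3 to 11 without single arrays. Fcer1g minus Tyrobp was 0.175 and passed after quantile normalization (exact permutation test, adjusted p = 0.029), and ran from 0.107 to 0.178 without single arrays. Small SV129 and FVB differences changed sign: Fcgr2b in SV129 was -0.0151 after centring each array on its median (-0.14 to 0.22 without single arrays), Fcgr4 in SV129 was -0.0183 after centring (-0.00339 to 0.0768 without single arrays), and Pirb in FVB ran from -0.0511 to 0.197. Of 2521 other values, 2402 kept direction and side of the threshold, 50 gained a call, 62 lost one and 7 changed sign. The cause of these shifts was not tested.

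With a replicate block, which pairs same-numbered PBS and CBE arrays of a strain, the counts were 3 in the mean of 4 strains, 1 in C57 and 5 for the pathway genes. Of the 6 pathway genes Vav1 lost its call under the block (adjusted p = 0.15). So did Csf1r (adjusted p = 0.11), and among the 93 results set beside it no other call of a single gene changed. Of 12 same-numbered pairs, 3 had correlated deviations over 0.1 (range -0.19 to 0.20). Dim probe sets limit Fcgr4 and Pirb most.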
